A study of Rattus norvegicus with 10 samples.

Results

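A set of 10 genes of the immediate-early response was followed in rat left ventricle after GATA-4 gene transfer. They were the AP-1 subunit genes Fos, Fosl1, Fosl2, Jun, Junb and Atf3, the transcription factor genes Egr1, Nr4a1 and Myc, and the stress-response gene Ier3. Members were taken as every probe set whose annotated symbol named one of these genes and no other. All 10 genes were found, by 14 probe sets, among 14217 genes named on the array, and all 10 had at least 1 probe set among the 10688 genes tested. A probe set is a group of short DNA probes on the array that together report 1 transcript.

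The study compared 5 left ventricular samples taken 3 days after transfer of the GATA-4 gene with 5 samples taken 3 days after transfer of LacZ, a bacterial reporter gene that served as control. The animals were male Sprague-Dawley rats of 250 to 300 g, and RNA was read on Affymetrix rat whole-genome arrays. Both groups had received a gene, so that no untreated ventricle enters the comparison, and no source used here gives the vector, its dose or its site of delivery. The samples are called arrays GATA-4 1 to 5 and LacZ 1 to 5, where the numbers only name them. The design text gives 5 samples a group and the labels name no animal, so p-values measure the spread between these samples.

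AP-1 is a family of dimeric transcription factors. FOS and JUN proteins pair through a leucine zipper and bind a short DNA element in front of genes of growth, matrix breakdown and stress. Immediate-early genes are transcribed within minutes of a growth factor, stretch or stress signal, from factors already present in the cell, and most of their transcripts are short-lived. In heart muscle Fos, Jun, Egr1 and Myc are known for an early burst after pressure load or stretch, whereas FOSL1 and FOSL2 proteins, which lack the strong activation domain of FOS, accumulate later.

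The transferred gene was read first. After normalization Gata4 averaged 11.44 ± 0.14 with GATA-4 and 10.65 ± 0.13 with LacZ (log2 signal; SD, n = 5 each), a rise of 0.79 (SE 0.09; limma adjusted p = 0.00131). Array GATA-4 1 was dim, with a trimmed mean signal of 142.3 as deposited, where the other GATA-4 arrays had 249.5 to 328.7 and the LacZ arrays 249.2 to 313.6. The sample numbers of arrays GATA-4 4 and 5 are not consecutive with the other 8, and no batch is labelled. Of 5 heart muscle cell markers tested none passed at an adjusted p under 0.05, and their summed signal was 50859 to 54028 with GATA-4 and 52372 to 53439 with LacZ. Of all genes tested 3.71% were called higher and 2.66% lower, the shares to set beside each count of markers here. Of the macrophage markers, all 14 of which were bright enough to be tested, 8 rose. Their summed signal was 20429 to 23055 with GATA-4 and 14147 to 16282 with LacZ. Neutrophil markers rose in 3 of the 5 tested, and the summed signal of all 7 on the array, the untested Mmp8 and Cxcr2 included, was 2643 to 8433 with GATA-4 and 1708 to 3201 with LacZ. Of 9 T and NK cell markers tested 1 rose and all 9 had a positive difference (median 0.61). The summed signal of the 10 on the array, with the untested Cd3d, was 2922 to 4236 with GATA-4 and 2313 to 2772 with LacZ. None of the 8 fibroblast, 7 endothelial and 5 smooth muscle markers tested passed. Fibroblast sums were 41339 to 49479 with GATA-4 and 40190 to 45745 with LacZ. Endothelial sums were 5608 to 7209 with GATA-4 and 6349 to 6988 with LacZ, and smooth muscle sums 2314 to 4898 with GATA-4 and 2560 to 2925 with LacZ. Array GATA-4 1 had the highest endothelial and smooth muscle sums of all 10 arrays. In a piece of ventricle more cells of a type and more RNA per cell cannot be told apart, and the part of these cells in the results on AP-1 genes was not tested.

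Promoters of 5 members were listed in RefSeq, build GRCr8, each from 250 bases before the start site to 50 after it. Those of Fosl1 and Junb are shown because these AP-1 genes rose, and that of Egr1 because it is a textbook immediate-early promoter of a gene whose difference did not pass. Capitals mark the cyclic AMP response half-site TGACG, read on either strand so that it may appear as CGTCA, and in Egr1 also the CArG box of the serum response element. The half-site is also contained in the full element TGACGTCA, of which none of the 5 promoters held a copy.
Fosl1, chr1:212183635-212183934, plus strand: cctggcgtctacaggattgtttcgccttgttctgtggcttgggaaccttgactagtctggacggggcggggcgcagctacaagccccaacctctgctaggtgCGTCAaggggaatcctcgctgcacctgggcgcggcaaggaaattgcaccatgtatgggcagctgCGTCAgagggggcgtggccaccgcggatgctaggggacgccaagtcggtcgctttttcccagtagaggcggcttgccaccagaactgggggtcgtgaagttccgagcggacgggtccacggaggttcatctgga
Junb, chr19:40080876-40081175, plus strand: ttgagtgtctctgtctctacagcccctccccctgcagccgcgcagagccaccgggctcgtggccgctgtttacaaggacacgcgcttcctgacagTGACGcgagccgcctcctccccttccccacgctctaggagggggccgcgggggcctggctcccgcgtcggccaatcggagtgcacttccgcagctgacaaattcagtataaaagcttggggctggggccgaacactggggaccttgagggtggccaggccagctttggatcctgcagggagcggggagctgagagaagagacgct
Egr1, chr18:26736828-26737127, plus strand: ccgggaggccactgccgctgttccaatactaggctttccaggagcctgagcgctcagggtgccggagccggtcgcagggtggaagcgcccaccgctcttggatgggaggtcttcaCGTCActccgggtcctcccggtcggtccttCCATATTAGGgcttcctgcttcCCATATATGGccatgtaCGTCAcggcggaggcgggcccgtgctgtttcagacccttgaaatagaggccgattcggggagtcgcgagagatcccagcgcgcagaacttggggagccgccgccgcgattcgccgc

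The half-site lay 148 and 84 bases before the start site in Fosl1, 155 in Junb, and 135 and 66 in Egr1. Nr4a1 held 4 copies and Fosl2 none. Of 33469 rat promoters of the same length 21.2% held the half-site. CArG boxes were found at 2 places in Egr1, at 105 and 83 bases before the start site, and in none of the other 4 promoters, against 1.64% of all promoters. The AP-1 element itself, TGANTCA, occurred in none of the 5 and in 7.33% of all. GATAA, the core that GATA factors bind, occurred in none of the 5 and in 26.5% of all, on either strand. These are matches of letters within a window of 300 bases, and binding was not measured.

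The question put to these transcripts was which of them differed between GATA-4 and LacZ ventricles on day 3. Fosl1, Ier3 and Junb rose, by 2.13-fold, 1.68-fold and 1.55-fold, and no member fell. All 10 members had a positive difference by their brightest probe set, where 47.4% of the genes tested did, and the median difference was 0.63 on the log2 scale against -0.02 over all genes. The 3 calls in 10 compare with 3.71% of all genes called higher and 2.66% called lower. The members were chosen with earlier results of these data known. Fosl1 also passed the brightness filter only through its GATA-4 arrays and so had to differ. All counts in this paragraph are therefore given as a description and not as support. With no filter 1 member, Ier3, was called. By probe set 3 of the 13 tested were called, where 5.3% of all probe sets were, 3.04% higher and 2.27% lower. A difference above 0.5 was found in 8 of the 10, against 5.67% of all genes. Jun and Nr4a1 had differences of 0.06 and 0.10, while Fos differed by 0.84, Myc by 0.77 and Egr1 by 0.63 without passing.

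**Figure D1:**
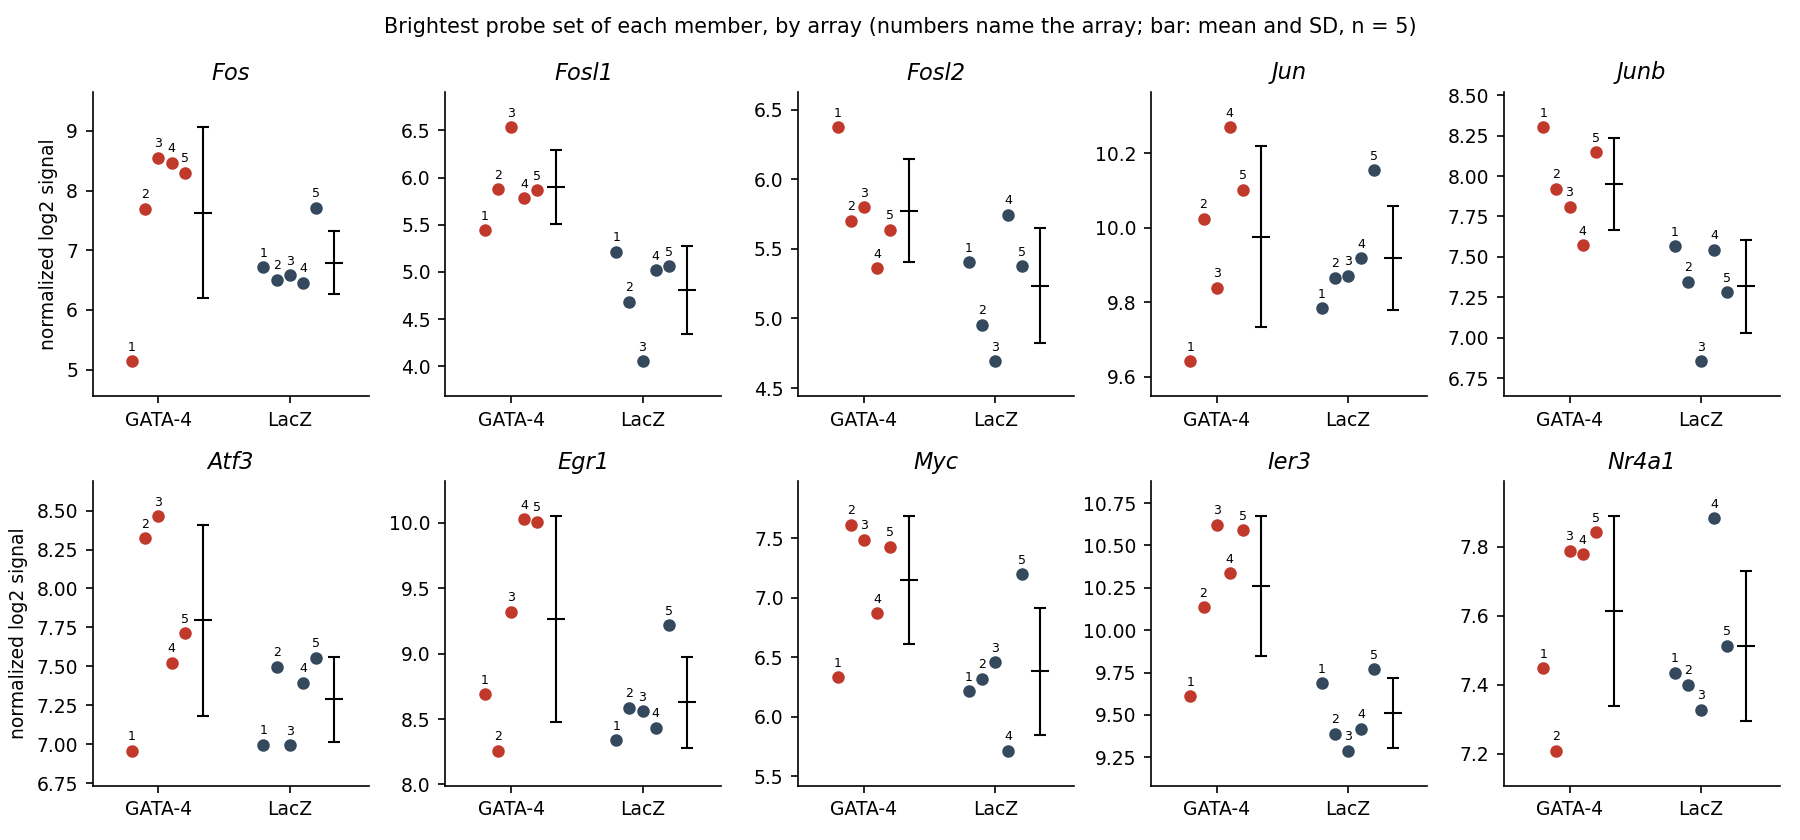
Normalized log2 signal (y axis, its own scale in each panel) of the brightest probe set of each of the 10 genes, with the 5 GATA-4 arrays left and the 5 LacZ arrays right. Numbers name the arrays, and the bar is the mean and SD. All GATA-4 points lie above all LacZ points in Fosl1 and Junb, while array GATA-4 1 lies at the bottom of its group in Fos, at 5.14.

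Fosl1, which encodes the AP-1 subunit FRA1, had the largest rise among the members called. Its normalized log2 signals were 5.44, 5.87, 6.53, 5.78 and 5.87 on arrays GATA-4 1 to 5, against 5.21, 4.68, 4.05, 5.02 and 5.06 on arrays LacZ 1 to 5. Every GATA-4 array lay above every LacZ array, with the dim array lowest in its group. The means were 5.90 ± 0.40 with GATA-4, against 4.81 ± 0.46 with LacZ (mean ± SD, n = 5 each), a difference of 1.09 (SE 0.26; limma adjusted p = 0.0329). As deposited, before normalization, the signals were 27.1, 70.2, 115.5, 56.7 and 63.0 on arrays GATA-4 1 to 5 and 36.2, 29.4, 16.4, 33.7 and 30.5 on arrays LacZ 1 to 5, so the dim array overlapped LacZ there. Fosl1 was a dim transcript. Its mean over all arrays passed the brightness filter, a log2 of 5.17, while its LacZ mean lay below it. Fosl1 was thus tested only through its GATA-4 arrays. Neither its adjusted p nor the separation of its groups therefore counts as support for a difference. With 16 added to every signal the difference was 0.78. Leaving out any of arrays GATA-4 2 to 5 or LacZ 2 to 5 ended the call (adjusted p from 0.056 to 0.0854), as did testing with no filter (0.0681).

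Fosl2, which encodes FRA2, was read by 2 probe sets of nearly equal brightness that differed in size of effect. The brighter gave 6.37, 5.70, 5.80, 5.36 and 5.64 on arrays GATA-4 1 to 5, against 5.41, 4.96, 4.69, 5.75 and 5.38 on arrays LacZ 1 to 5. These groups overlapped, and the difference of 0.54 (SE 0.24) had a limma adjusted p of 0.218. The other probe set gave 6.01, 6.16, 6.68, 6.00 and 6.01 with GATA-4 and 5.46, 3.14, 4.14, 5.46 and 5.62 with LacZ. Here all GATA-4 arrays lay above all LacZ arrays, and LacZ 2 and 3 were far lower than the other LacZ arrays. The difference of 1.41 (SE 0.42) had an adjusted p of 0.0702 in limma and an exact two-sided permutation p of 0.00794, the smallest that 252 assignments of the arrays allow. The brighter probe set had a LacZ mean of 5.24, close to the brightness filter. The dimmer one, with a LacZ mean of 4.76, passed the filter only through its GATA-4 arrays. Neither of its p-values therefore counts as support for a difference. As deposited, its signal on array GATA-4 1 was 38.3, below LacZ 1, 4 and 5 (42.3, 45.7 and 44.0), so the groups overlapped there. The call of the dimmer probe set passed with 16 added (difference 0.96, adjusted p = 0.0465) and without array GATA-4 1 (1.47, adjusted p = 0.0453).

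Fos, the founding AP-1 subunit and a classic immediate-early gene, varied most between arrays. Its brighter probe set read 5.14, 7.70, 8.55, 8.47 and 8.30 on arrays GATA-4 1 to 5, against 6.71, 6.50, 6.58, 6.46 and 7.72 on arrays LacZ 1 to 5. The dim array was the lowest of all 10, arrays GATA-4 3 to 5 were above every LacZ array, and LacZ 5 was level with GATA-4 2. The mean difference of 0.84 (SE 0.54) did not pass in limma (adjusted p = 0.394). Without array GATA-4 1 it was 1.47 (adjusted p = 0.00314), and without arrays GATA-4 4 and 5 it was 0.34 (adjusted p = 0.813). The other Fos probe set was at background, with 1.33 to 3.37 under GATA-4 and 1.39 to 2.10 under LacZ, and was not tested in the fit (exact permutation p = 0.714).

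Junb, a JUN family subunit that often restrains JUN, rose. Its signals were 8.30, 7.92, 7.81, 7.57 and 8.15 on arrays GATA-4 1 to 5, against 7.57, 7.35, 6.85, 7.55 and 7.28 on arrays LacZ 1 to 5. After normalization the groups did not overlap, although GATA-4 4 stood barely above LacZ 1, and here the dim array was the highest of all. As deposited, the dim array read 172.6, below LacZ 1, 2 and 4 (177.8, 197.4 and 187.5), so the groups overlapped there. Junb averaged 7.95 ± 0.29 with GATA-4, against 7.32 ± 0.29 with LacZ (mean ± SD, n = 5 each), a difference of 0.63 (SE 0.17; limma adjusted p = 0.0467). Fosl1 and Junb are the members whose brightest probe sets did not overlap between the groups after normalization, 2 of 10. Of all genes tested 4.56% were higher and 5.1% lower without overlap. Both members overlapped as deposited, and Fosl1 passed the filter only through its GATA-4 arrays, so this count is a description. The Junb call was near the threshold: it was kept without GATA-4 1 (adjusted p = 0.0347) or GATA-4 4 (0.0444), was lost without any other single array (0.0615 to 0.125), and was lost under median centring (0.0512).

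Jun, the main partner of FOS proteins, did not pass by any of its 3 probe sets. The brightest had signals of 9.64, 10.02, 9.84, 10.27 and 10.10 on arrays GATA-4 1 to 5, against 9.78, 9.87, 9.87, 9.92 and 10.15 on arrays LacZ 1 to 5, and the groups overlapped fully. Its difference was 0.06 with a 95% interval of -0.20 to 0.31, and its sign turned under median centring (-0.02). The next had 9.74, 9.55, 9.56, 9.45 and 9.60 with GATA-4, against 9.31, 9.27, 9.23, 9.25 and 9.65 with LacZ. In that probe set all GATA-4 arrays lay above LacZ 1 to 4 after normalization, and LacZ 5 lay among them. As deposited, the dim array read 454.7 there, below every LacZ array (581.9 to 774.8). After normalization this probe set differed by 0.24 (SE 0.10; limma adjusted p = 0.202). The dimmest differed by -0.04 (95% interval -0.32 to 0.23). The 2 brighter sets carry the suffix s, which Affymetrix used for probes that match more than 1 transcript.

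Atf3, a stress-induced repressor that pairs with JUN proteins, had signals of 6.96, 8.32, 8.46, 7.52 and 7.71 on arrays GATA-4 1 to 5, against 7.00, 7.50, 7.00, 7.40 and 7.56 on arrays LacZ 1 to 5. GATA-4 2 and 3 stood well above every LacZ array, while GATA-4 4 and 5 lay near the top of the LacZ range and the dim array lay below it. The difference was 0.51 (SE 0.25; limma adjusted p = 0.258). Without the dim array it was 0.72 (adjusted p = 0.0293).

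**Figure D2:**
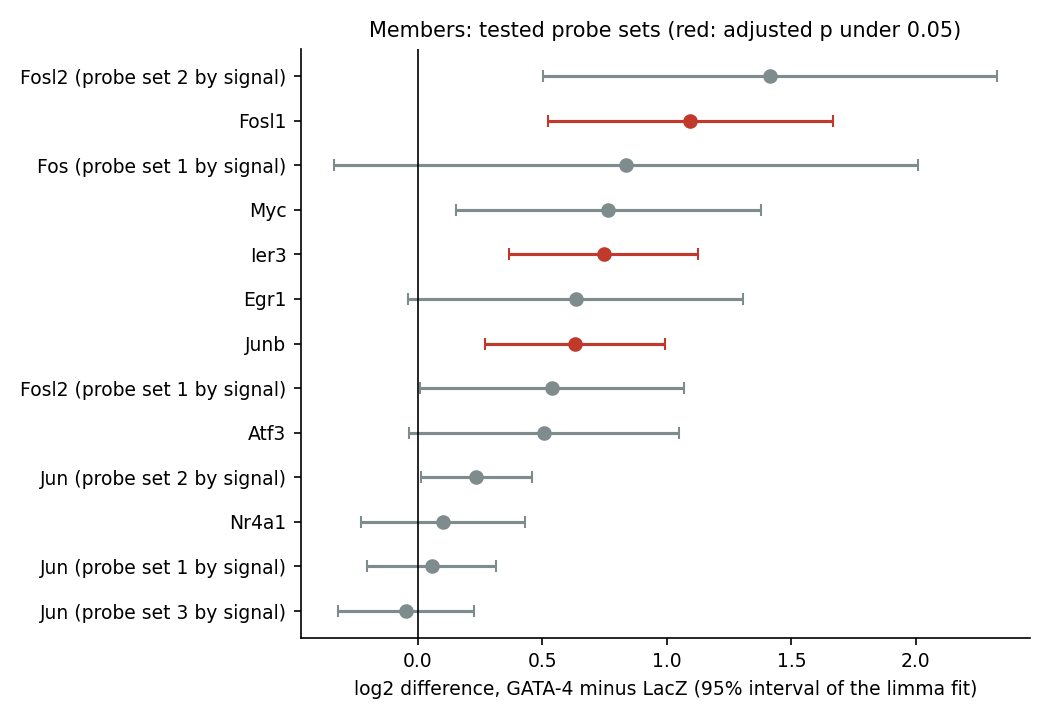
Log2 difference, GATA-4 minus LacZ, of the 13 tested probe sets of the members, with the 95% interval of the limma fit. Probe sets called at an adjusted p under 0.05 are red: Fosl1 at 1.09, Ier3 at 0.75 and Junb at 0.63. The other Fosl2 probe set has the widest difference, 1.41, and its interval is broad.

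Egr1, a zinc finger factor induced through serum response elements, showed another order of arrays. Its signals were 8.69, 8.26, 9.32, 10.03 and 10.01 on arrays GATA-4 1 to 5, against 8.34, 8.59, 8.56, 8.43 and 9.22 on arrays LacZ 1 to 5. GATA-4 4 and 5 were highest, GATA-4 2 was the lowest of all 10, and LacZ 5 stood above the other LacZ arrays. The difference of 0.63 (SE 0.31) had a limma adjusted p of 0.254. Without GATA-4 4 and 5, the arrays whose sample numbers lie apart, it was 0.13 (adjusted p = 0.826).

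Nr4a1, an orphan nuclear receptor of the immediate-early class, read 7.45, 7.21, 7.79, 7.78 and 7.84 on arrays GATA-4 1 to 5, against 7.43, 7.40, 7.33, 7.88 and 7.51 on arrays LacZ 1 to 5. No GATA-4 array exceeded the highest LacZ array. Its difference was 0.10 with a 95% interval of -0.23 to 0.43 (limma adjusted p = 0.739). That interval ends below the differences estimated for Fosl1, Ier3 and Junb. It overlaps the intervals of Ier3 (0.37 to 1.13) and Junb (0.27 to 0.99) and not that of Fosl1 (0.52 to 1.67). Whether the genes differ from each other was not tested. Without GATA-4 4 and 5 the sign turned (-0.03).

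Myc, the growth-promoting factor that pairs with MAX, had signals of 6.33, 7.62, 7.49, 6.87 and 7.43 on arrays GATA-4 1 to 5, against 6.22, 6.32, 6.46, 5.72 and 7.20 on arrays LacZ 1 to 5. GATA-4 2, 3 and 5 were above every LacZ array, GATA-4 4 was above all but LacZ 5, and the dim array lay among the LacZ arrays. The difference of 0.77 (SE 0.28) was as wide as that of Ier3 and did not pass (limma adjusted p = 0.136). It passed without the dim array (0.98, adjusted p = 0.0205), and without LacZ 5 it was 0.97 (adjusted p = 0.076).

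Ier3, a short-lived protein induced by stress and survival signals, rose. Its signals were 9.61, 10.13, 10.62, 10.34 and 10.59 on arrays GATA-4 1 to 5, against 9.69, 9.39, 9.29, 9.42 and 9.77 on arrays LacZ 1 to 5. GATA-4 2 to 5 lay above every LacZ array, and the dim array lay below LacZ 1 and LacZ 5. Ier3 averaged 10.26 ± 0.41 with GATA-4, against 9.51 ± 0.21 with LacZ (mean ± SD, n = 5 each), a difference of 0.75 (SE 0.18; limma adjusted p = 0.0308). Without the dim array the difference was 0.91 (adjusted p = 0.00126), and without GATA-4 2 the call was kept as well (0.0427). Leaving out any of GATA-4 3 to 5 or LacZ 1 to 5 ended it (adjusted p from 0.0517 to 0.0964), and so did median centring (0.071).

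**Figure D3:**
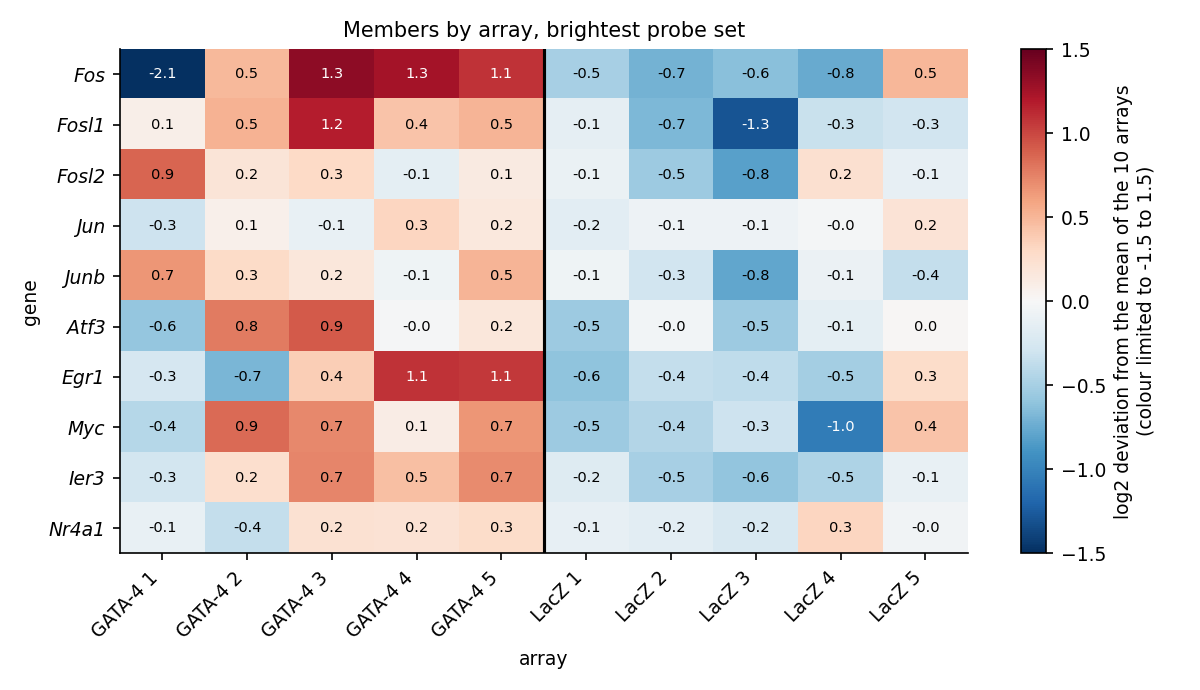
Log2 deviation of each member (rows) from its own mean over the 10 arrays, on the GATA-4 arrays left of the line and the LacZ arrays right of it. Array GATA-4 1 is low in Fos and high in Fosl2 and Junb, and LacZ 5 is above 0 in Fos, Egr1 and Myc.

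The members moved together in part, with the dim array and LacZ 5 apart from the rest of their groups. Arrays GATA-4 5 and 3 were above the gene's own mean in 10 and 9 of the 10 members, GATA-4 2 in 8 and GATA-4 4 in 7. The dim array was above it in 3, which were Fosl1, Fosl2 and Junb. LacZ 5 was above it in 5 members, LacZ 4 in 2 and LacZ 1, 2 and 3 in none. Median deviations ran from -0.26 on the dim array to 0.55 on GATA-4 3, against -0.57 on LacZ 3 to -0.02 on LacZ 5. Across the 10 arrays, the members most alike were Fosl1 and Ier3 (Pearson r = 0.90) and Fosl2 and Junb (r = 0.88). Fos was most like Ier3 (r = 0.83) and Nr4a1 most like Egr1 (r = 0.65). These values describe the same 10 arrays and include the difference between the groups.

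Among all 10688 genes tested, the ones nearest to each member in pattern over the 10 arrays were mostly not called. Fos was nearest to Sgk1 (r = 0.97), a kinase gene that is itself induced early by stress and hormones, and to Ahctf1 (r = 0.95). Fosl1 was nearest to Nme1 (0.96), a nucleoside diphosphate kinase that rose by 0.54, and to Gpt2 (0.96). Ier3 was nearest to Nabp1 (0.97), which encodes a single-stranded DNA binding protein and rose by 0.90, and to Cenpf (0.96), a gene of dividing cells. Arid5a was nearest to both Fosl2 (0.96) and Junb (0.94), followed by Mapkapk3 (0.95) for Fosl2 and Ppil1 (0.93) for Junb. Myc was nearest to S100a10 (0.95) and to the cytokine gene Il6 (0.94). For Atf3 these genes were Nln and Atp8b4 (0.96 each), for Egr1 Polr2a (0.94) and Sec24b (0.92), for Jun Pdk4 and Atp2a2 (0.89 each), and for Nr4a1 Bltp2 (0.92) and Fgfr2 (0.87). Each is the top of a ranking of 10687 genes over 10 arrays that share their processing, and no test is attached.

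Textbook AP-1 target genes, a list chosen with earlier results of these data known, rose in 7 of 19 tested and fell in none, where 3.71% of all genes rose and 2.66% fell, with a median difference of 0.62. Timp1, an inhibitor of metalloproteinases, stood at 12.04 ± 0.23 with GATA-4, against 11.00 ± 0.25 with LacZ (mean ± SD, n = 5 each; log2 difference 1.04, limma adjusted p = 0.00303). The matrix protein gene Tnc rose by 1.09 (adjusted p = 0.00418), and Plaur, the urokinase receptor, by 1.10 (adjusted p = 0.0112). These 3 genes and Mt2A, a metallothionein (0.81, adjusted p = 0.0167), did not overlap between the groups. Timp1, Tnc and Plaur kept their calls with any single array left out, and Mt2A missed without LacZ 3 (adjusted p = 0.0604). The chemokine gene Ccl2 rose by 1.23 (adjusted p = 0.036) with overlapping groups, and that call was kept only without GATA-4 1 or LacZ 5 among the 10 fits that left out 1 array, with up to 0.104 in the others. Of the 25 targets on the array 6 were too dim to test, the metalloproteinases Mmp3, Mmp9 and Mmp13 among them. Without GATA-4 4 and 5 the count was 2, without the dim array 13, and without any other single array 3 (without LacZ 3) to 5. Of all 18625 probe sets 566 were called higher in the main setting, 139 without GATA-4 4 and 5 and 1464 without the dim array. Macrophages also express several of these genes, and the macrophage markers above moved with them, a part that was not tested.

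**Figure D4:**
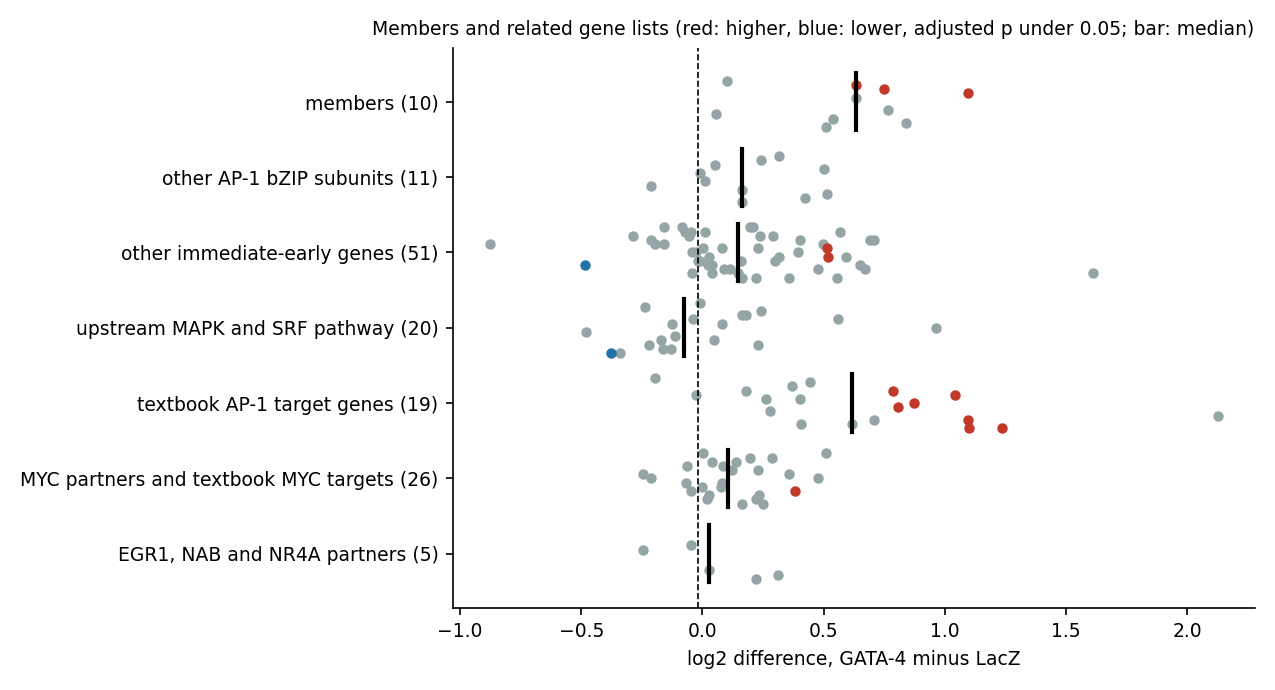
Log2 differences, GATA-4 minus LacZ (x axis), of the members and the genes of 6 related lists, with the number tested in brackets. Each point is a gene, the bars are list medians and the dashed line is the median of all genes at -0.02. The members and the AP-1 targets have medians of 0.63 and 0.62, and the genes of the upstream MAP kinase and serum response pathway one of -0.08.

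Other AP-1 subunits and related basic leucine zipper factors had no call among 11 tested in limma (median 0.16), and 1 had an unadjusted p under 0.05. Without the dim array 3 of the 11 were called higher, and with array weights 1. Calls rose under both settings over all 18625 probe sets too. From 566 higher and 422 lower they went to 1464 and 1385 without the dim array, and to 1435 and 1455 with array weights. Jund, picked out after its values were seen as the JUN gene not covered above, differed by 0.16 and stood at 11.66 ± 0.09 with GATA-4, against 11.49 ± 0.15 with LacZ (mean ± SD, n = 5 each). Fosb, Jdp2 and Atf2 were too dim to test. Among 51 other immediate-early genes tested 2 rose and 1 fell, or 3.92% higher, where 3.71% of all genes rose and 2.66% fell. Their median was 0.15. Without the dim array 12 were called higher and 2 lower, with array weights 13 and 2, and none either way without GATA-4 3, GATA-4 5, LacZ 1, LacZ 3 or LacZ 4. The 2 were Bcl3, a cofactor of NF-kappa-B (0.51, limma adjusted p = 0.0269), and Dusp2, a phosphatase that switches off MAP kinases (0.52, adjusted p = 0.0413). Hes1, a repressor downstream of Notch, fell by 0.49 (adjusted p = 0.0265). An unadjusted p under 0.05 was reached by 16 of the 51 with a positive difference and by 2 with a negative one, where 12% and 12.2% of all genes did so. With single arrays left out Bcl3 lost its call in 7 of 10 fits, Dusp2 in 9 and Hes1 in 6, with adjusted p-values of up to 0.0816, 0.119 and 0.0755, and without the dim array all 3 were called (adjusted p = 0.00568, 0.00838 and 0.0127).

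Upstream, the genes of the MAP kinase and serum response pathway had a median of -0.08 over 20 tested, with no rise and 1 fall in limma. Of all genes 3.71% rose and 2.66% fell. An unadjusted p under 0.05 was reached by 3 of the 20 with a positive difference and by 4 with a negative one. Over all genes these shares were 12% and 12.2%. Without the dim array 1 of the 20 rose and 2 fell, and with array weights 3 rose and 2 fell. Under these settings the calls over all 18625 probe sets rose from 988 to 2849 and 2890. Mapk8, which encodes the JUN kinase JNK1, fell by 0.38 (adjusted p = 0.0455), at 8.35 ± 0.14 with GATA-4, against 8.73 ± 0.08 with LacZ (mean ± SD, n = 5 each). Its groups did not overlap, and 5.1% of all genes tested were lower without overlap. The Mapk8 call was kept without the dim array (0.0114) and lost without any other single array (0.0639 to 0.123). These values are of transcripts, and the activity of the kinases was not measured. MYC partners and textbook targets had 1 rise among 26, that of Nop58, a protein of ribosomal RNA modification (0.38, adjusted p = 0.0294), which lost its call in 7 of the 10 fits that left out 1 array (up to 0.0968). Their median was 0.10, and 6 had a positive difference at an unadjusted p under 0.05, where 12% of all genes did. The 1 call in 26 compares with 3.71% of all genes. Both without the dim array and with array weights 5 were called, settings in which calls rose over all probe sets too. No gene passed among 5 genes of NAB partners of EGR1 and of other EGR and NR4A family members, with 1 higher and 1 lower at an unadjusted p under 0.05. The family members among them were also counted with the other immediate-early genes.

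**Figure D5:**
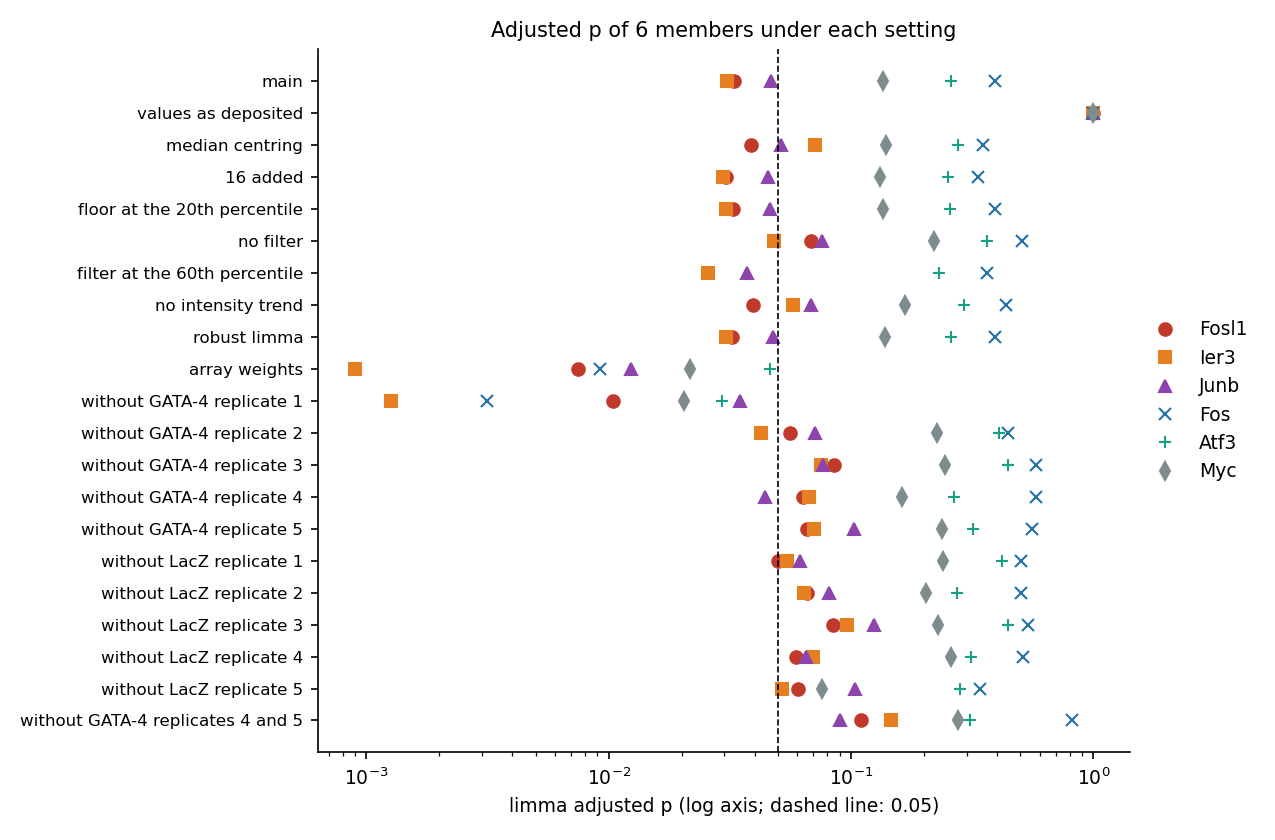
Limma adjusted p (x axis, log scale, dashed line at 0.05) of 6 members under the main setting and each alternative. Fosl1, Ier3 and Junb lie left of the line in the main setting and right of it in most fits that leave out 1 array, while Fos, Atf3 and Myc cross it without array GATA-4 1 and with array weights.

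The number of members called moved with single arrays. Without the dim array 7 of 10 members were called, Fos, Atf3, Myc and Fosl2 joining the others, where the count over all probe sets was 2849 instead of 988. Fosl2 counts there through the probe set that read dimmer in the main setting. That probe set and the one of Fosl1 passed the brightness filter there only through their GATA-4 arrays. The count of 7 is therefore a description and not support. None was called without GATA-4 3, GATA-4 5 or any of LacZ 2 to 5, and 1 without each of GATA-4 2, GATA-4 4 and LacZ 1. The differences themselves moved less, from 0.91 to 1.22 for Fosl1, from 0.66 to 0.91 for Ier3 and from 0.52 to 0.73 for Junb over the 10 fits.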

How the data were processed

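Linear probe set intensities were deposited by the authors for 10 arrays. The submitters' processing notes name GCOS, the software of the array maker, and no source used here gives its version, summary method or scaling. Groups follow the source label, since the titles name GATA-4 on all arrays. Values were taken to log2, quantile normalized over 31042 probe sets, 57 controls left out, and floored at a log2 of 0. Probe sets with a mean above the 40th percentile (18625) entered a linear model without covariates (R 4.3.3, limma 3.58.1, eBayes with trend). P-values are two-sided and adjusted by Benjamini-Hochberg over all of them, with a threshold of 0.05, and all adjusted p-values come from limma. The fit was also run on simulated data with independent normal noise. These held no dim or outlying array, so the run does not show how the fit handles such arrays. The brightest tested probe set stands for a gene. Names come from GEO's platform annotation, updated by gene ID from RefSeq (GRCr8). All members are named, and up to 5 called genes of each other list. The members and lists were chosen with earlier results of these data known. Alternatives covered normalization, an added constant, floor, filter, moderation, array weights (statmod 1.5.0), probe set choice and left-out arrays. The number of arrays limits the precision.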

Additional observations from a re-analysis of the deposited data

Results flagged for a closer look

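In 28 groups of 5 arrays, 14 probe sets by 2 groups, 5 arrays lay apart from the rest of their group by Dixon's gap test, and chance flags about 1 in 20 groups. Array GATA-4 1 had a Fos signal of 5.14, where the other GATA-4 arrays had 7.70 to 8.55. LacZ 5 lay above the other LacZ arrays in 3 of them: in Fos at 7.72 against 6.46 to 6.71, in the middle Jun probe set at 9.65 against 9.23 to 9.31, and in Egr1 at 9.22 against 8.34 to 8.59. GATA-4 3 had 6.68 in the dimmer Fosl2 probe set, where the other GATA-4 arrays had 6.00 to 6.16.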

How the results depend on the processing

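Changed probe sets numbered 988, 566 higher and 422 lower, and 9 in the values as deposited, 619 with no filter, 539 without the intensity trend, 2890 with array weights and 201 without GATA-4 4 and 5. With 1 array left out the count ran from 174 (without LacZ 3) to 2849 (without GATA-4 1). Under median centring the split was 322 higher and 401 lower. Of the 10 members 3 were called, and 0 as deposited (2 at an unadjusted p under 0.05 in limma), 1 under median centring, 1 with no filter, 1 without the trend, 7 with array weights, 0 without GATA-4 4 and 5 (4 at an unadjusted p under 0.05) and 0 to 7 with 1 array left out. The brightest Jun probe set turned sign as deposited (-0.020), under median centring (-0.023), without GATA-4 4 (-0.017, in a range up to 0.139 with 1 array left out) and without GATA-4 4 and 5 (-0.085). The dimmest turned with array weights (0.0081), without GATA-4 3 (0.038, in a range down to -0.111) and without LacZ 4 (9.4e-04), and Nr4a1 without GATA-4 4 and 5 (-0.031). The cause was not tested. Of 257 member values under alternatives 203 kept both sign and side of the threshold, 36 lost the call, 10 gained it and 8 turned sign. Most of these values belong to probe sets that were not called and so had no call to lose. Among the called members, Fosl1 kept its call in 8 of 19 alternatives, Junb in 7 of 20 and Ier3 in 8 of 20. No paired analysis was possible because the labels give the groups no shared replicate numbers.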
